A study of Aspergillus nidulans with 38 samples.

Results

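Mycelium of *Aspergillus nidulans* taken 25 min after the addition of micafungin was compared with mycelium taken from the same cultures at 0 min. The comparison uses 6 of the 38 RNA-seq libraries of a time course that ran to 120 min, namely the 3 libraries labelled 25 min and the 3 labelled 0 min, paired by replicate number. Each replicate was a single shake flask that was sampled again and again, and replicates are called flasks 1, 2 and 3 here. All 6 libraries came from the parental strain FGSC A1405 (labelled AN1405), grown at 28 °C and 250 rpm for about 20 h in 1.2 L of YGV medium, which was inoculated from a 12 h seed culture in low pH YGV. Micafungin was then given at 20 ng per ml of culture for each g/kg of biomass, and the 0 min sample was taken just before it. The only untreated material is that 0 min sample, so 25 min of drug and 25 min of further culture and sampling cannot be told apart. Reads counted on genes were 5973782, 10036333 and 6696372 at 0 min and 8216890, 9215639 and 7545945 at 25 min in flasks 1, 2 and 3, within the range of 5814843 to 10846567 over the series.

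Micafungin is an echinocandin that blocks β-1,3-glucan synthase, the plasma membrane enzyme that makes the main structural glucan of the hyphal wall. Fungi sense a weakened wall at the membrane and pass the signal through protein kinase C and a MAP kinase cascade, the cell wall integrity pathway, with calcineurin acting beside it. Known transcriptional outputs in *Aspergillus* include wall polymer synthases, among them α-1,3-glucan synthases, and enzymes that remodel or cut wall polymers.

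After 25 min no gene passed the test on the 6 libraries. The 12 genes with the largest upward change common to all flasks included *agnE*, a putative α-1,3-glucanase, and *hmgX*, of the homogentisate pathway. The 12 with the largest downward one included *pdcA*, pyruvate decarboxylase, a carbonic anhydrase, a glutamate decarboxylase and *mirA*, a siderophore transporter. With the flask as a block, edgeR's quasi-likelihood test called 0 of 8290 genes (0%) at a Benjamini-Hochberg adjusted p under 0.05, and the lowest adjusted p was 0.339. An unadjusted p under 0.05 was found for 506 genes, 319 higher and 187 lower at 25 min, where 414.5 would be expected by chance. The test has 2 residual degrees of freedom. With limma the count was also 0 (533 genes had an unadjusted p below 0.05), whereas DESeq2 on the same libraries called 46 (0.555%), 16 higher and 30 lower.

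A second test took the spread of each gene from 36 libraries of 12 time points and is called the pooled test here. It called 32 genes (0.386%), of which 15 were higher (0.181%) and 17 lower (0.205%) at 25 min, and all 32 had the same sign in every flask. Libraries taken in series from a flask are not independent, so its p-values may be too small, and the adjusted p of these 32 genes in the 6-library test lay between 0.339 and 0.737. The pooled count was 0 without flask 1, 80 without flask 2 and 14 without flask 3, with 0, 16 and 3 genes shared with the 32, and it was 0 without the block. Verbs of change below refer to this test alone and are given with both adjusted p-values, M for the 6-library and P for the pooled edgeR test.

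**Figure D1:**
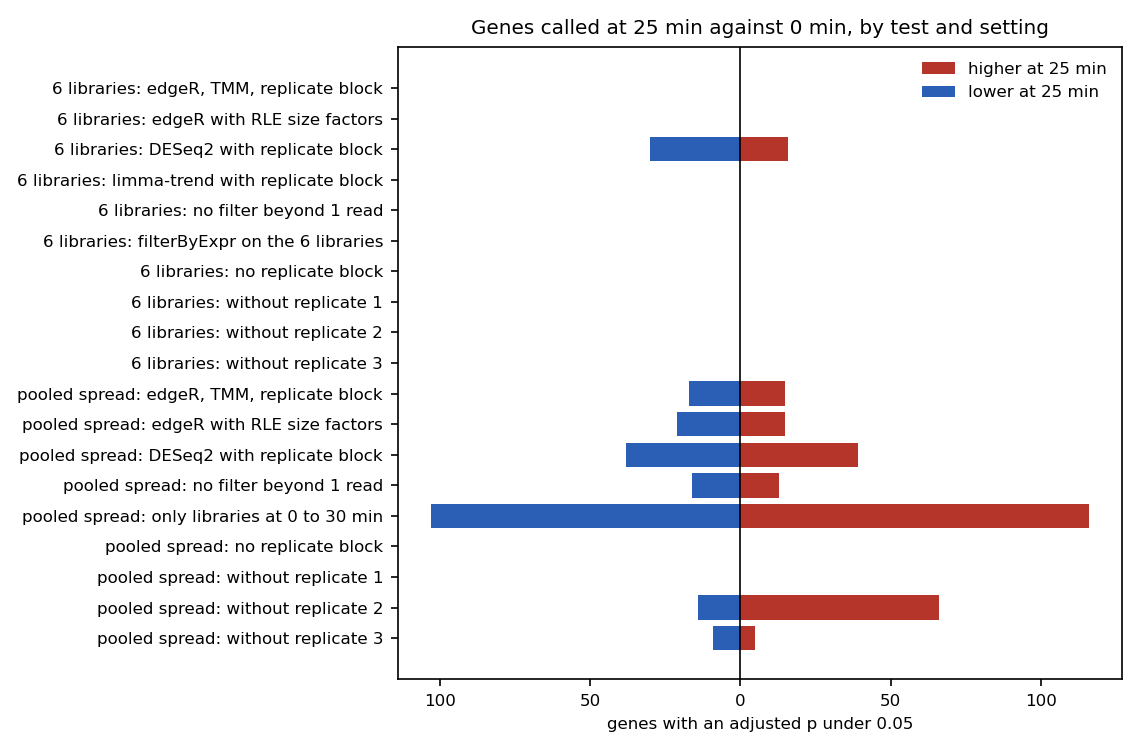
Number of genes with an adjusted p under 0.05 at 25 min against 0 min, with genes higher at 25 min drawn to the right and genes lower to the left, for each test and setting. Among the 6-library settings only DESeq2 called any gene (46), and the pooled count ran from 0 to 219.

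The flasks differed in how far they moved. On the log2 scale of normalized counts plus 0.5, at least a doubling was seen for 439 genes in flask 1, 223 in flask 2 and 771 in flask 3, and at least a halving for 281, 181 and 655. The median size of the change was 0.24, 0.20 and 0.40. Across 7398 genes with a mean normalized count of at least 20, which are not independent replicates, the changes of flask 1 correlated with those of flask 2 at r = 0.28, those of flasks 1 and 3 at -0.10 and those of flasks 2 and 3 at 0.11. Flask 2 stood apart at 0 min, with 81 genes at least 4-fold above both other flasks, against 1 in flask 1 and 17 in flask 3, and flask 3 had 64 genes at least 4-fold below both others. At 25 min the corresponding counts above both others were 0, 39 and 23.

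The match of flasks across time rests on the replicate numbers, and the 0 min and 25 min libraries did not all resemble their own number most. Over the same 7398 genes, deviations from the mean of the time point correlated between 0 and 25 min at -0.04, 0.70 and 0.03 within flasks 1, 2 and 3. Flask 1 at 0 min gave 0.38 with flask 3 at 25 min, and flask 3 at 0 min gave 0.46 with flask 1 at 25 min. Along the steps from 0 to 5, 10, 20, 25 and 30 min each flask correlated best with its own number, at 0.43 to 0.91, so the numbers were kept. Whether flasks 1 and 3 at 0 min and at 25 min are the same cultures was not tested beyond this, and the changes of single flasks, their SD and the blocked tests all depend on it.

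**Figure D2:**
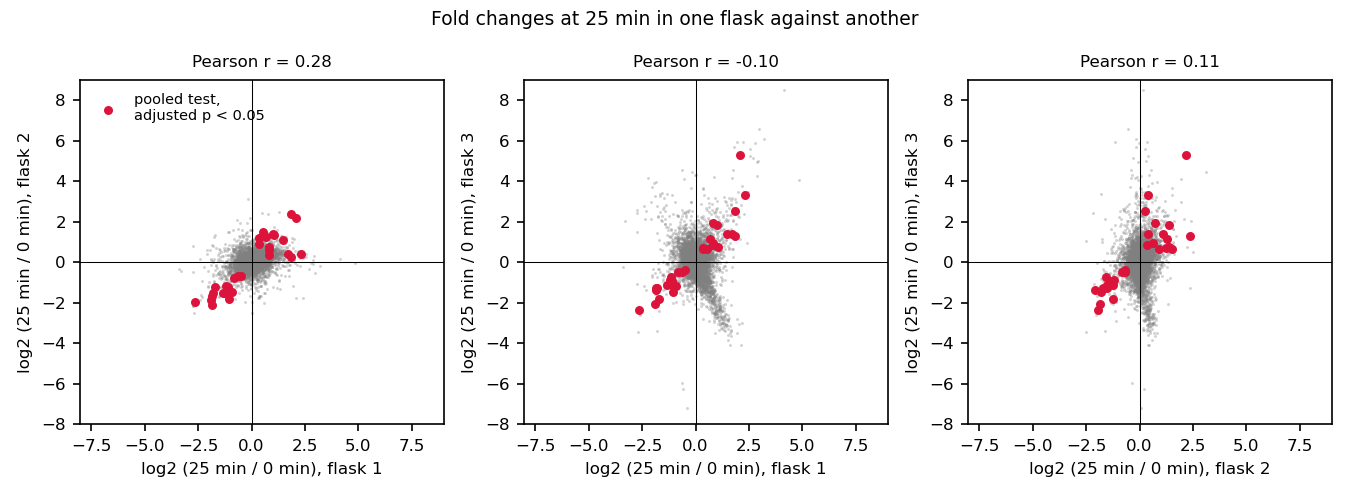
Each point is a gene, placed by its log2 ratio of 25 min over 0 min in a flask (x axis) and in another flask (y axis), for the 3 pairs of flasks and genes with a mean normalized count of at least 20. Red points are genes called by the pooled test, which lie on the same side of 0 in each pair, while the grey cloud gives r = 0.28, -0.10 and 0.11.

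A count that uses no test describes agreement between flasks, and no share expected by chance was worked out for it. A log2 change of at least 0.5 in the same direction in all 3 flasks was seen for 138 genes upward (1.66%) and 102 downward (1.23%), with median changes of 1.07 and -1.15. Of these, 56 and 27 had a mean normalized count under 20, and the threshold itself keeps the medians away from 0. All 25 min libraries lay above all 0 min libraries for 392 genes (4.73%) and below them for 304 genes (3.67%). With 3 libraries against 3, interchangeable libraries would give shares at least as large. These counts, and a lack of overlap in a single gene below, therefore do not show a response by themselves.

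The gene with the largest rise in the pooled test was *agnE* (AN1604), a putative α-1,3-glucanase related to the fission yeast enzyme that cuts α-glucan. Its normalized counts were 13.5, 53.1 and 0 at 0 min and 59.4, 239 and 19 at 25 min in flasks 1, 2 and 3. Every flask was higher at 25 min, but the groups overlapped because flask 2 started above the 25 min level of flask 3. The log2 change was 2.09, 2.16 and 5.29, with a mean of 3.18 ± 1.83 (SD over the 3 flasks, as in all values below), and the adjusted p was 0.509 (M) and 0.000635 (P). The value of flask 3 is set against 0 reads and depends on the added 0.5. At 20 min *agnE* stood at 48.1, 169 and 5.40, and at 30 min at 70.5, 341 and 17.9, so most of the difference from 0 min was present by 20 min in flasks 1 and 2. It was among the 50 genes the study tabulated as most raised over these samples and among its wall genes, so its direction is not independent evidence.

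**Figure D3:**
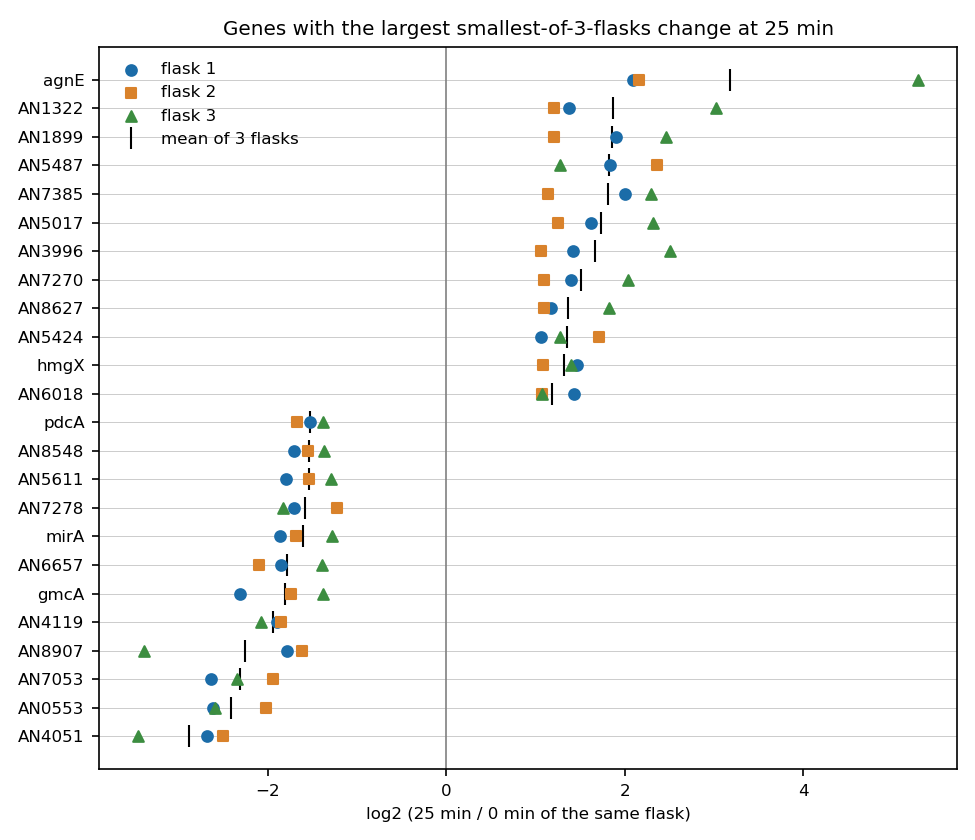
Log2 ratio of 25 min over 0 min in flasks 1, 2 and 3 (points) and their mean (bars) for the 12 genes higher and the 12 genes lower at 25 min in every flask, ranked by the smallest of the 3 changes among genes with a mean normalized count of at least 20. *agnE* has the highest mean (3.18) and AN4051 the lowest (-2.88), and no point lies on the other side of 0.

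*hmgX* (AN1898), a gene of the homogentisate pathway of tyrosine breakdown, had normalized counts of 153, 404 and 80.5 at 0 min and 424, 856 and 213 at 25 min. Each flask rose by a similar factor from a different level, and the groups overlapped. The mean log2 change was 1.32 ± 0.20, a 2.49-fold rise (adjusted p = 0.455 M, 0.049 P), and DESeq2 gave an adjusted p of 0.00044. Its neighbour AN1899, annotated as 4-hydroxyphenylpyruvate dioxygenase, the step that makes homogentisate, went from 79.8, 307 and 15.1 to 301, 708 and 85.7, a mean log2 change of 1.86 ± 0.63 that did not pass either edgeR test (adjusted p = 0.455 M, 0.12 P). These belong to a run of 5 consecutive genes in the RefSeq annotation, *maiA*, *fahA*, *hmgA*, *hmgX* and AN1899, which was put together after their values were seen. *hmgA*, homogentisate dioxygenase, and *fahA*, fumarylacetoacetase, had smaller mean log2 changes of 0.64 ± 0.25 and 0.56 ± 0.28. *maiA*, maleylacetoacetate isomerase, was higher in flasks 1 and 2 (0.91 and 0.93) and lower in flask 3 (-0.40).

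A second run of neighbours, AN7263 to AN7270, was also assembled after the values were seen, and all 8 of its genes were higher in every flask. AN7263 had normalized counts of 126, 185 and 84.2 at 0 min and 204, 445 and 187 at 25 min. All 25 min libraries stood above all 0 min libraries, and the mean log2 change was 1.03 ± 0.30 (adjusted p = 0.509 M, 0.00282 P). AN7268, uncharacterized, went from 32.5, 38.9 and 10.1 to 65.3, 102 and 37.0, a mean log2 change of 1.40 ± 0.42 (adjusted p = 0.455 M, 0.0448 P) in groups that overlapped. The other 6 had mean log2 changes between 0.69 ± 0.40 (AN7264) and 1.59 ± 0.53 (AN7266), and none of them passed either edgeR test.

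The other genes with the largest differences in every flask have little or no annotation. AN5487 had normalized counts of 14.9, 38.1 and 7.54 at 0 min and 54.5, 198 and 19 at 25 min, with log2 changes of 1.84, 2.36 and 1.28 and a mean of 1.83 ± 0.54 (adjusted p = 0.455 M, 0.0278 P). It increased in each flask, from the lowest level in flask 3. AN7385, annotated as a phosphatidylserine decarboxylase, the enzyme class that makes phosphatidylethanolamine, stood at 317, 258 and 35.2 at 0 min and 1267, 569 and 175 at 25 min. Its mean log2 change of 1.81 ± 0.60 was over 1 in each flask but did not pass the edgeR tests (adjusted p = 0.455 M, 0.265 P). AN5017 showed no overlap between groups, at 78.5, 158 and 41.5 before and 244, 378 and 209 after, a mean log2 change of 1.74 ± 0.54 (adjusted p = 0.455 M, 0.173 P). AN8627 likewise had no overlap, at 123, 157 and 59.1 before and 279, 336 and 210.5 after (1.36 ± 0.40, adjusted p = 0.455 M, 0.26 P), as did AN6018, at 14.9, 15.9 and 8.80 before and 40.9, 33.9 and 19 after (1.19 ± 0.21, adjusted p = 0.509 M, 0.0668 P). AN1322, with a predicted GTPase domain and a yeast relative in mitochondrial fusion, had a mean log2 change of 1.86 ± 1.00, AN3996, a predicted methyltransferase, of 1.67 ± 0.75, and AN5424 of 1.35 ± 0.33. None of these 3 passed either edgeR test.

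Among the smaller rises in the pooled test, AN2230, annotated as an oxidoreductase, gained a mean of 0.80 ± 0.18 on the log2 scale, from 58.2, 97.5 and 57.8 to 103, 149 and 113 (adjusted p = 0.582 M, 0.0147 P). Its lowest 25 min library stood just above the highest 0 min library. AN6918 (0.63 ± 0.29), AN7786 (0.67 ± 0.26), AN1071 (0.89 ± 0.53), AN9139 (1.16 ± 0.67) and AN7600 (1.16 ± 0.68) were also without overlap, while AN3312 (0.75 ± 0.43) and AN1184 (1.05 ± 0.31) overlapped. Their adjusted p ran from 0.528 to 0.728 (M) and from 0.0232 to 0.0489 (P).

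In sulfate assimilation, *sA* and *sC* stood out by the size of their changes and by the inequality between flasks. Sulfate is first activated by ATP sulfurylase, the product of *sC*, then phosphorylated by the kinase *sD* to PAPS, which the reductase *sA* converts to sulfite on the way to cysteine. *sA* (AN4770) had normalized counts of 943, 992 and 533 at 0 min and 4754, 1306 and 5285 at 25 min. The groups did not overlap, but the change in flask 2 was 0.40 on the log2 scale against 2.33 in flask 1 and 3.31 in flask 3. The mean was 2.01 ± 1.48, a 4.03-fold rise (adjusted p = 0.728 M, 0.0266 P). *sC* (AN4769), its neighbour in the annotation, went from 2367, 949.9 and 1273 to 6392, 1427 and 5569, with a mean log2 change of 1.38 ± 0.77 that did not pass the edgeR tests (adjusted p = 0.637 M, 0.0989 P), and flask 2 after drug stayed below flask 1 before it. *sD* did not follow, at 1115, 1046 and 1506 before and 1044, 1192 and 1497 after (0.03 ± 0.15). AN1752, with no annotated role, had the same flask profile as *sA*, from 1056, 924 and 611 to 3854, 1087 and 3475 (1.54 ± 1.17, adjusted p = 0.737 M, 0.0499 P). The median over the 6 genes tested of sulfate assimilation was 0.12 (0.21 without flask 2), beside -0.01 for all genes. The pooled test called 1 of the 6, against 0.386% of all genes.

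Genes for taking sulfur from organic compounds showed the flask inequality in full. Fungi short of sulfur make sulfatases, sulfonate dioxygenases and monooxygenases that release sulfite or sulfate from such compounds. The list held 11 genes, all from the study's table of its most raised genes, so their upward direction is not independent evidence. All 11 had a mean change above 0 and the list median was 1.87, but by flask it was 1.77, 0.00 and 3.46, and it was 2.88 without flask 2 and 0.68 without flask 3. No member was called by either edgeR test, none moved by 0.5 in every flask, and the groups overlapped for each. DESeq2 on the 6 libraries called the member AN2960 (adjusted p = 0.0496) and, outside the list, its neighbour AN2959 (0.0449), against 0.555% of all genes. In all 11, flask 2 was the highest library at 0 min, by a median log2 difference of 4.76 over the mean of flasks 1 and 3, and at 25 min it was still highest in all 11, by a median of 3.00.

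Single genes show what lay behind those medians. AN2110, which resembles taurine dioxygenases, had normalized counts of 455, 5935 and 158 at 0 min and 3351, 5662 and 4871 at 25 min. Flasks 1 and 3 approached the level that flask 2 held from the start (2.58 ± 2.52, adjusted p = 0.847 M, 0.723 P). AN2960, of the same enzyme type, went from 62.3, 3306 and 32.7 to 339, 3976 and 365, and its neighbour AN2959, a predicted transporter of the major facilitator family, from 46.0, 2124 and 8.80 to 275, 2798 and 348. In both, flasks 1 and 3 were higher at 25 min and still far below flask 2. AN2558, a flavin monooxygenase, stood at 6.77, 1372 and 2.51 before and 41.9, 1635 and 145 after. The arylsulfatase AN8341 went from 133, 1001 and 76.7 to 649, 888 and 862. The smallest change of the list, 0.14 ± 0.97, was that of AN9191, which was lower in flask 2 (-0.81).

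**Figure D4:**
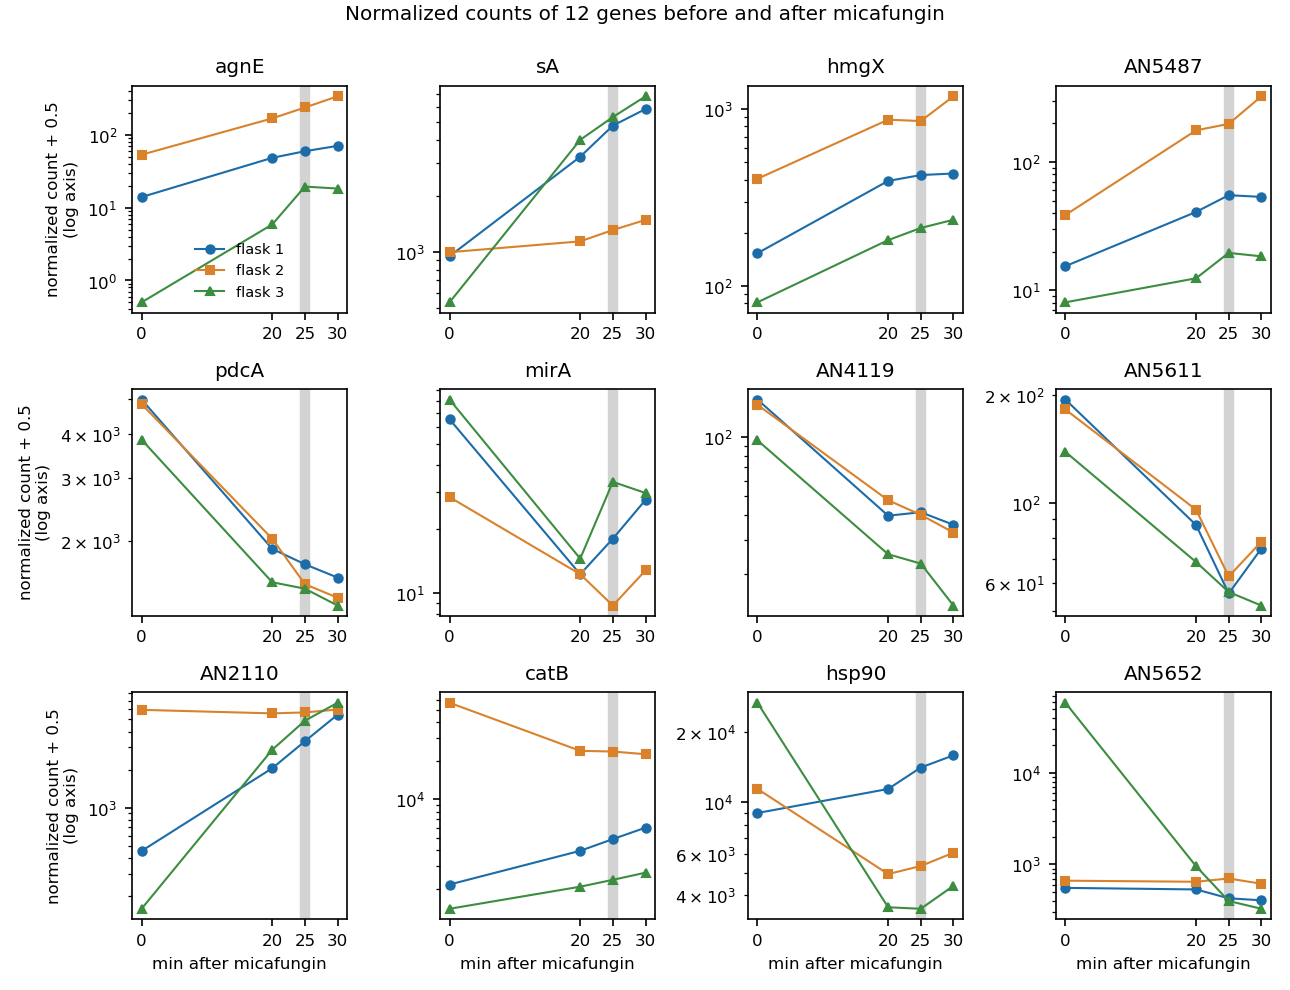
Normalized counts plus 0.5 on a log axis at 0, 20, 25 and 30 min in flasks 1, 2 and 3 for 12 genes, with the grey bar at 25 min. *agnE*, *hmgX* and AN5487 are higher and *pdcA*, *mirA*, AN4119 and AN5611 lower in every flask at 25 min, *sA* and AN2110 differ mainly in flasks 1 and 3, and *catB*, *hsp90* and AN5652 change in opposite directions or in a single flask.

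The 50 genes tabulated by the study as most raised had a median change of 1.39, and 49 of the 50 had a mean above 0. They were chosen on these samples, so neither value is independent evidence. By flask the median was 1.32, 0.23 and 2.35, and it was 0.86 without flask 3. At 0 min 47 of the 50 were highest in flask 2, as were 2950 of all 8290 genes. The pooled test called 1 of the 50, *agnE* (0.386% of all genes), and 7 moved upward by at least 0.5 in every flask (1.66% of all genes).

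AN4119, annotated only for transmembrane transport, had normalized counts of 154, 145 and 95.6 at 0 min and 40.9, 39.7 and 22.2 at 25 min. All 25 min libraries lay below all 0 min libraries, and the log2 change of -1.90, -1.86 and -2.08 was nearly the same in each flask. The mean was -1.95 ± 0.12, a 3.86-fold fall (adjusted p = 0.339 M, 0.000939 P). AN6657, uncharacterized, fell 3.44-fold, from 637, 622 and 441 to 176, 145 and 167 (adjusted p = 0.455 M, 0.0065 P), again without overlap. AN7053, also uncharacterized, fell 4.95-fold from lower levels of 81.2, 46.0 and 50.3 to 12.7, 11.6 and 9.52 (adjusted p = 0.372 M, 0.0151 P), the largest fall in the pooled test. Its levels at 25 min were close to each other.

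Several of the falling genes encode enzymes of known activity. AN5611, a carbonic anhydrase, which interconverts carbon dioxide and bicarbonate, went from 194, 182 and 138 to 55.5, 62.0 and 56.1 (-1.54 ± 0.25, adjusted p = 0.455 M, 0.0147 P). The groups were far apart. AN7278, a glutamate decarboxylase, which makes γ-aminobutyrate, went from 48.7, 50.7 and 31.4 to 14.6, 21.5 and 8.46 (-1.59 ± 0.32, adjusted p = 0.455 M, 0.0147 P), without overlap. AN3347, an amino acid transporter, had one of the smaller falls, from 2355, 2069 and 3134 to 1344, 1183 and 2252 (-0.70 ± 0.19, adjusted p = 0.509 M, 0.00282 P), and overlapped because flask 3 was higher at both times. AN0495, annotated as a formyltetrahydrofolate deformylase of purine synthesis, fell by 0.60 ± 0.10 on the log2 scale (adjusted p = 0.511 M, 0.02 P).

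Other genes called by the pooled test were AN2488 (-1.34 ± 0.20), AN4127 (-1.16 ± 0.08), AN3163 (-1.14 ± 0.21), AN8314 (-1.45 ± 0.37), AN5845 (-1.77 ± 0.75), AN2010 (-1.15 ± 0.42), AN6091 (-0.54 ± 0.15), which has a predicted zinc and DNA binding domain, and AN6810 (-1.08 ± 0.19), annotated for isoprenoid synthesis. None of these overlapped between groups, whereas AN2649 (-1.18 ± 0.29) did. With AN2649 included, their adjusted p ran from 0.455 to 0.689 (M) and from 0.00787 (AN4127) to 0.0499 (AN3163) (P). Of the 17 genes that fell, 14 had all 25 min libraries below all 0 min libraries (3.67% of all genes), and of the 15 that rose, 9 had the reverse (4.73% of all genes). The call and this count come from the same libraries.

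Ethanol fermentation runs from pyruvate through pyruvate decarboxylase to alcohol dehydrogenase. *pdcA* (AN4888), the decarboxylase, had normalized counts of 4976, 4833 and 3845 at 0 min and 1726, 1519 and 1476 at 25 min. The groups were far apart and the 3 flasks gave log2 changes of -1.53, -1.67 and -1.38. The mean of -1.53 ± 0.14 corresponds to a 2.88-fold lower level. It did not pass either edgeR test (adjusted p = 0.339 M, 0.202 P), while DESeq2 gave 4.71e-09. *alcC* (AN2286), an alcohol dehydrogenase, went from 2838, 2870.2 and 2194 to 1366, 1153 and 1248 (-1.06 ± 0.25, adjusted p = 0.455 M, 0.255 P, DESeq2 0.00178), also without overlap. Both genes of this list were at least 0.5 lower in every flask, against 1.23% of all genes, and their median was -1.29.

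Glycolysis feeds that route, and none of its 8 genes tested was called. All 8 had a mean below 0, as had 4234 of all 8290 genes. Their median was -0.32, with flask medians of -0.29, -0.06 and -0.74, and it was -0.49 without flask 2 and -0.16 without flask 3. *glkA*, glucokinase, went from 1244, 1545 and 2041 to 924, 1125 and 1228 (-0.54 ± 0.17, adjusted p = 0.656 M, 0.421 P), without overlap. *gpdA*, glyceraldehyde-3-phosphate dehydrogenase, was nearly level in flasks 1 and 2 (-0.03 and -0.08) and lower in flask 3 (-0.75). In the glyoxylate and gluconeogenesis list, *acuF*, PEP carboxykinase, stood at 315, 193 and 352 before and 119, 136 and 116 after (-1.17 ± 0.58, adjusted p = 0.656 M, 0.634 P), while the median of the 7 genes was -0.05.

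Of the iron uptake genes *mirA* alone fell in the pooled test. Fungi short of iron secrete siderophores, made by the *sid* enzymes, and bring the loaded forms back through transporters of the *mir* family. Of 11 genes tested, 10 had a mean below 0 (4234 of all 8290 genes had), and the median was -0.66, with flask medians of -0.97, -0.60 and -0.35. *mirA* (AN7800), an enterobactin transporter, had normalized counts of 65.0, 27.8 and 80.5 at 0 min and 17.5, 8.26 and 32.8 at 25 min. Each flask fell, but flask 2 before drug was lower than flask 3 after it. The mean log2 change was -1.61 ± 0.30 (adjusted p = 0.455 M, 0.0147 P), and the pooled test called 1 of the 11, against 0.205% of all genes in that direction. *mirB* (AN8540), the triacetylfusarinine C transporter, went from 272, 220.4 and 617 to 138, 82.6 and 205 (-1.32 ± 0.32, adjusted p = 0.455 M, 0.0563 P), without overlap.

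The synthesis enzymes *sidH* (-0.94 ± 0.56), *sidI* (-0.85 ± 0.35) and *sidD* (-0.81 ± 0.45) were lower in every flask and not called, and *sidH* and *sidI* completed the 4 members that moved by at least 0.5 downward in each flask (1.23% of all genes did). The exception in direction was *sreA*, the repressor of iron uptake, at 597, 620.0 and 109 before and 539.6, 494 and 325 after, higher in flask 3 alone. Flask 3 held the highest level of 9 of the 11 genes at 0 min and of 10 at 25 min, and of 2979 and 2962 of all 8290 genes.

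The next 4 genes were among those called by DESeq2 but by neither edgeR test. The same held for AN1899 (DESeq2 adjusted p = 0.000557), AN7385 (0.000121), AN5017 (0.000417), AN5424 (0.00133), AN8627 (0.00537) and AN7266 (0.00227). It also held for *sC* (0.0237), *mirB* (0.00132), *gmcA* (4.67e-06), AN8548 (0.00327) and AN0553 (2.38e-05), among others. *hem13* (AN5130), coproporphyrinogen oxidase of heme synthesis, stood at 1460.3, 1171 and 1777 before and 727, 639 and 767 after (-1.03 ± 0.17, adjusted p = 0.455 M, 0.55 P, DESeq2 0.00251). Its groups were well separated. AN8907, an iron-binding oxidoreductase annotated for lipid synthesis, went from 497, 402 and 1142 to 144, 131 and 109 (-2.26 ± 0.98, adjusted p = 0.509 M, 0.197 P). AN4135, an acyl-CoA desaturase, went from 306, 248 and 436 to 94.5, 112 and 81.5 (-1.75 ± 0.63, adjusted p = 0.455 M, 0.0902 P), and AN9297, annotated as an oleate hydratase, from 610.4, 363 and 225 to 92.5, 81.8 and 105 (-1.99 ± 0.82, adjusted p = 0.483 M, 0.147 P). None of the 4 overlapped between groups. *hem13*, AN4135 and AN9297 were picked out after their values were seen.

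AN4051, uncharacterized, had the lowest mean change of all genes, from 365, 321 and 850.1 to 56.5, 56.2 and 77.2 (-2.88 ± 0.50, adjusted p = 0.339 M, 0.268 P, DESeq2 4.16e-14). AN0553 went from 104, 48.4 and 104 to 16.6, 11.6 and 16.9 (-2.41 ± 0.34, adjusted p = 0.339 M, 0.181 P). Neither overlapped between groups. *gmcA* (AN8547), a putative glucose-methanol-choline oxidoreductase needed early in conidiophore development, and its neighbour AN8548 were lower together, from 678, 194 and 1478 to 136, 57.8 and 567 (-1.81 ± 0.47, adjusted p = 0.455 M, 0.227 P) and from 112, 37.3 and 235 to 34.1, 12.4 and 91.0 (-1.54 ± 0.17, adjusted p = 0.455 M, 0.0983 P). Both kept the same order of flasks at each time, so the groups overlapped while every flask was lower.

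**Figure D5:**
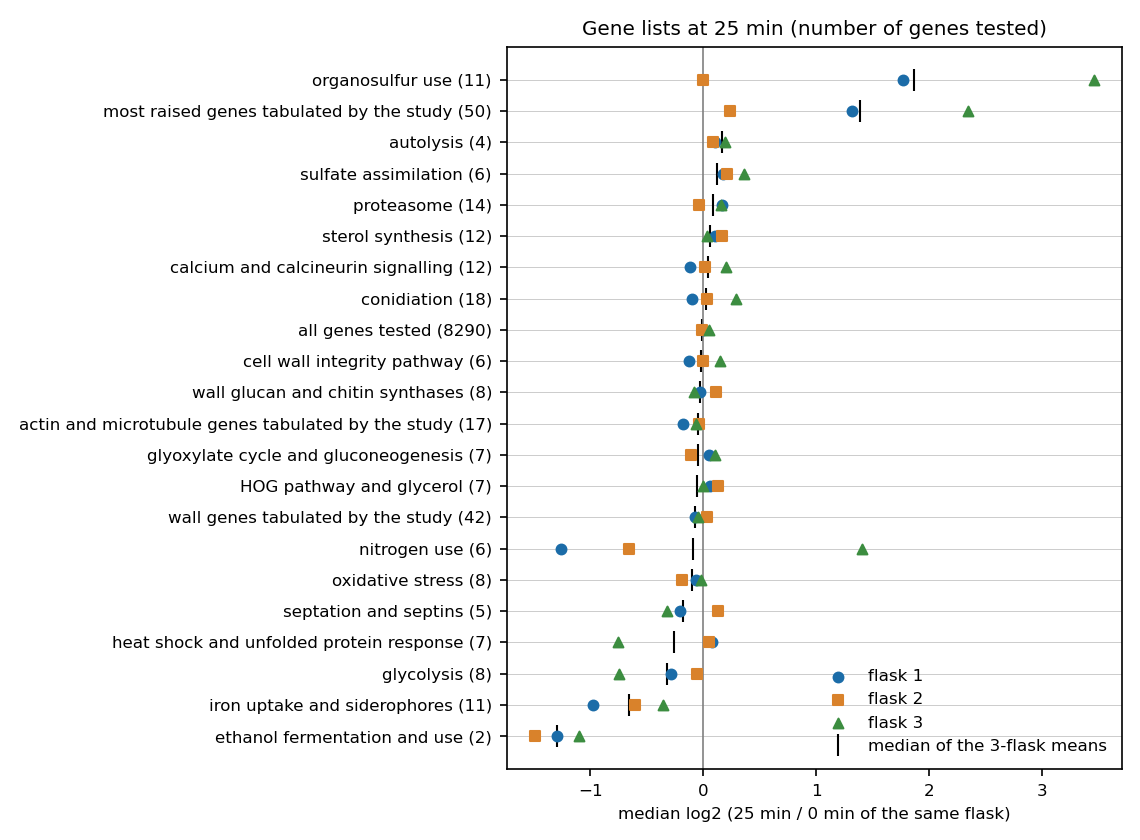
Median log2 ratio of 25 min over 0 min for the tested members of 21 gene lists and for all genes, by flask (points) and for the 3-flask mean (bars). Organosulfur use is highest (1.87) with flask 2 at 0.00, ethanol fermentation lowest (-1.29) with the flasks close together, and most other lists lie near 0.

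Of the wall genes and the genes of wall stress signaling, only *agnE* was called at 25 min. Of 42 wall genes tabulated by the study and tested, the median was -0.07, and the pooled test called 1, *agnE*, upward, against 0.181% of all genes. The study chose the list on these samples. *agsA*, an α-1,3-glucan synthase, stood at 79.8, 113 and 59.1 before and 84.8, 229.7 and 91.0 after (0.57 ± 0.47, adjusted p = 0.836 M, 0.802 P). *agsB*, the other α-1,3-glucan synthase, went from 4493, 4332 and 3709.6 to 3326, 3396 and 3665 (-0.27 ± 0.22, adjusted p = 0.888 M, 0.753 P), and the 25 min libraries lay just below the 0 min ones. Among 8 wall glucan and chitin synthases the median was -0.03 and none was called. *chiA*, a chitinase, was lower at 114, 151 and 372 after against 242, 203 and 915 before (-0.93 ± 0.46, adjusted p = 0.656 M, 0.201 P), and the chitin synthase AN4367 at 27.3, 19.8 and 13.8 against 31.1, 39.6 and 27.7 (-0.72 ± 0.46, adjusted p = 0.812 M, 0.535 P).

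The 6 genes tested of the cell wall integrity pathway had a median of -0.02, with *rom2* at -0.05, *pkcA* at -0.01 ± 0.24 and *rlmA*, the transcription factor at its end, at -0.03 ± 0.11. The calcium and calcineurin list of 12 had a median of 0.04. *cnaA*, the catalytic subunit of calcineurin, stood at 1617, 1559 and 1562 before and 1453, 1494 and 1972 after (0.04 ± 0.26, adjusted p = 0.991 M, 0.917 P), and *crzA*, its transcription factor, at 678, 789.7 and 688 before and 554, 634 and 779.6 after (-0.14 ± 0.28, adjusted p = 0.976 M, 0.898 P). The 7 genes of the HOG pathway had a median of -0.06, and *atfA*, a bZIP factor of stress responses, had a small change alike in each flask (0.29 ± 0.02, adjusted p = 0.84 M, 0.607 P). No member of these 3 lists was called.

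Median changes were -0.18 for 5 genes of septation, -0.05 for 17 tabulated actin and microtubule genes, 0.17 for 4 of autolysis, 0.09 for 14 of the proteasome and 0.06 for 12 of sterol synthesis, again with no member called. Among the actin and microtubule genes, which the study tabulated from these samples, *nce102*, an eisosome protein, was lower in every flask, from 70.4, 79.3 and 49.0 to 37.0, 44.6 and 24.3 (-0.91 ± 0.09, adjusted p = 0.509 M, 0.582 P). Conidiation genes mark the conidiophores that this mycelium could hold, and their 18 tested members had a median of 0.02 with none called. *brlA*, the switch to conidiophores, was low at 12.2, 25.4 and 1.26 before and 12.7, 45.5 and 5.29 after, *ivoB* at 4.06, 10.3 and 0 before and 2.92, 23.1 and 3.17 after, and the spore pigment gene *wA* at 10.8, 10.3 and 11.3 before and 5.84, 6.61 and 8.46 after.

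Some large differences were unequal in size or direction between flasks. *hsp90* (AN8269), a chaperone of the heat shock response, had normalized counts of 8995, 11402 and 26623 at 0 min and 14075, 5339 and 3503 at 25 min, so it was higher in flask 1 and lower in flasks 2 and 3 (-1.12 ± 1.79, adjusted p = 0.927 M, 0.544 P). *hsp70* gave 12421, 14783 and 32925 before and 19479, 8878 and 6556 after, the same pattern (-0.80 ± 1.49). Over the 7 genes of heat shock and the unfolded protein response the flask medians were 0.08, 0.05 and -0.76, and the median of -0.26 was -0.0104 without flask 3 and -0.43 without flask 2. Both chaperones were highest in flask 3 at 0 min and lowest there at 25 min.

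Other genes had opposite differences in the libraries numbered 1 and 3 as well. After the values were seen, genes with a log2 change of at least 0.5 upward in flask 1 and at least 1 downward in flask 3 were counted, and 293 of 7398 (3.96%) did so, against 123 (1.66%) in the reverse sense. Their median change was 0.88, 0.27 and -1.93 in flasks 1, 2 and 3. These counts follow from matching the libraries by number, which the correlations of 0.38 and 0.46 across flasks 1 and 3 leave in doubt, and the way the genes were chosen fixes their direction. The groups overlapped for each of the 6 named next.

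Among them was *cbf5* (AN8851), in yeast the pseudouridine synthase of box H/ACA particles, with normalized counts of 1403, 1394 and 5141 at 0 min and 3501, 1956 and 638 at 25 min. *nop58* (AN3167), in yeast a core protein of box C/D particles, went from 836, 871 and 2979 to 2205, 1154 and 323, and *utp10* (AN5455), of the small subunit processome, from 292, 377 and 1166 to 846, 488 and 119.5. For these 3 genes flask 3 was highest at 0 min and lowest at 25 min, and flask 2 changed least. *nop7* (AN3827), *erb1* (AN1367) and *has1* (AN1949), ribosome assembly factors in yeast, had log2 changes of 1.52, 1.30 and 1.41 in flask 1 and -3.83, -2.89 and -3.03 in flask 3. None of the 6 was called, with adjusted p from 0.991 to 0.995 (M) and from 0.913 to 0.929 (P), and they were chosen for their flask pattern. At 20 min flask 3 had 733 normalized counts of *cbf5*, and at 30 min 1439.

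AN5652 is the extreme case, at 552, 662 and 58630.0 before and 425, 699.9 and 397 after. Its neighbours AN5651 (14.9, 12.7 and 1115 before, 9.74, 14.9 and 13.8 after) and AN5650 (257, 243 and 19212 before, 168, 192 and 304 after) shared it, a run chosen after the values were seen. At 20 min flask 3 had 953 counts of AN5652, so the high level was seen in the library numbered 3 at 0 min and not in that numbered 3 at 20 min. This again depends on matching the libraries by number. No role is annotated for the 3 genes, and none was called in the mean over flasks.

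Flask 2 had its own such genes. *catB* (AN9339), a hyphal catalase, stood at 2155, 56888 and 1392 before and 4883, 23621 and 2345 after, so that it was higher in flasks 1 and 3 and lower in flask 2 (0.22 ± 1.31, adjusted p = 0.991 M, 0.939 P). AN2561, beside AN2558, went from 5.41, 5089 and 0 to 45.8, 3514 and 46.5, and AN9372, whose changes of 4.12, 0.15 and 8.49 gave the highest mean of all genes (4.25 ± 4.17, adjusted p = 0.871 M, 0.82 P), from 6.77, 689 and 0 to 126, 766 and 179. The value of flask 3 in both is set against 0 reads. AN0020 had the same order of flasks, at 2.71, 437 and 0 before and 11.7, 195 and 29.6 after.

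Nitrate use also differed in sign between flasks, again with the libraries at 0 and 25 min matched by number. *crnA* (AN1008), the nitrate transporter, had 662, 561 and 138 normalized counts before and 234, 323 and 853 after. *niiA*, nitrite reductase, gave 6190.4, 4696 and 1188 before and 2101, 3263 and 4854 after, and *niaD*, nitrate reductase, 1041, 836 and 250.2 before and 386, 462 and 927 after. All 3 were lower in flasks 1 and 2 and higher in flask 3, and the 6 genes of nitrogen use had flask medians of -1.26, -0.66 and 1.41 around an overall median of -0.09, with none called. The median was 0.41 without flask 1, 0.15 without flask 2 and -1.09 without flask 3. For these genes the median log2 difference of flask 3 from the mean of flasks 1 and 2 was -1.28 at 0 min and 1.01 at 25 min.

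The time points on either side were compared with 25 min in the same way. Set against 20 min, with the same test and 3 libraries each, 0 of 8290 genes passed (0%), with 500 at an unadjusted p under 0.05 and 0 called by DESeq2. Set against 25 min, 30 min gave 0 genes (0%), with 432 at an unadjusted p under 0.05 and 3 lower genes called by DESeq2. The test also called 0 genes against 0 min, with 506 at an unadjusted p under 0.05, so these counts do not show that 25 min resembles its neighbours. Leaving out flasks 1, 2 and 3 in turn gave 16, 81 and 0 genes for 25 against 20 min and 31, 4 and 52 for 30 against 25 min. *agnE* had a mean log2 change of 0.84 ± 0.77 from 20 to 25 min and of 0.22 ± 0.30 from 25 to 30 min. *sA* gained 0.39 ± 0.18 and then 0.28 ± 0.10, *pdcA* changed by -0.21 ± 0.19 and then -0.14 ± 0.02, AN4119 by -0.12 ± 0.16 and -0.41 ± 0.27, and AN2110 by 0.50 ± 0.41 and 0.41 ± 0.31. For each of these the step on either side was smaller than the difference from 0 min, and it did not pass the test.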

How the data were processed

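Of 38 libraries, the 3 at 0 min and the 3 at 25 min were compared, with those at 20 and 30 min beside them. Per the study's methods, single-end reads were mapped by the authors to the FGSC A4 genome with HISAT2 and counted per gene with HTSeq, on the Ensembl Fungi annotation. The deposited raw counts (9541 genes) were used here. The tables also hold normalized values and DESeq2 fold changes and p-values of the authors, which were not used. No strand setting for the counting is given in the sources used here. Overlapping genes on opposite strands may share counts. The 36 repeated 0 min columns were identical. Of 2 columns whose name matched no sample, 1 served only in the filter for 15 min and 1 was not used.

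Genes with reads in at least 2 libraries at all 13 time points were kept (8290). Tests used edgeR 4.0.16 in R 4.3.3 with TMM normalization, flask as a block and Benjamini-Hochberg adjustment (threshold 0.05), tested on simulated data first. There the 6-library test recovered 17% of simulated log2 changes of 1 and 94% of those of 2, with 11 false calls. For the pooled test these values were 71%, 98% and 9. Simulated counts were drawn independently for each library, so the dependence between serial samples of a flask was not covered. The pooled test fitted time and flask over 36 libraries, without 15 min, with 22 residual degrees of freedom. limma 3.58.1 and DESeq2 1.42.0 were alternatives, with other size factors, filters, pseudocounts (5 for 0.5) and flasks left out. Normalized counts are counts over median-of-ratios size factors. The pairing by flask comes from the study's serial sampling. Across 7398 genes, deviations from the time point's mean correlated within flasks 1, 2 and 3 at 0.57, 0.89 and 0.90 between 0 and 5 min, at -0.04, 0.70 and 0.03 between 0 and 25 min and at 0.86, 0.88 and 0.89 between 20 and 25 min, while 0 min flasks 1 and 3 with 25 min flasks 3 and 1 gave 0.38 and 0.46. Depth sets the counting error, which weighs most for genes with few reads.

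Named genes are the 12 in each direction with the largest smallest-of-3-flasks change (mean count of at least 20), the 8 in each direction with the largest change in the pooled test, up to 4 per list by size of mean change, *agsA*, *agsB*, *agnE*, *brlA*, *cnaA*, *crzA* and *fksA*, and the 6 with the widest spread between flasks (mean count of at least 50). Others, among them the remaining genes called by the pooled test, were named after their values were seen. The comparison, the 21 lists and the tests were chosen with earlier results of these data known. *fksA* was not paired with a gene number in the sources used for names, and it and 1 other gene are not reported here. Gene names came from the RefSeq table of ASM1142v1 (8939 IDs matched, 716 with a symbol) and the study's tables, and for a few IDs the *A. nidulans* names in common use were kept where the table has another symbol or none (*catB*, *sA*, *sD*, *pdcA*, *alcC*, *wA*).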

Additional observations from a re-analysis of the deposited data

How the results depend on the processing

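The 6-library count stayed at 0 in every edgeR and limma setting, including the fit without the replicate block (0 genes, 293 at an unadjusted p under 0.05) and without flasks 1, 2 or 3 (367, 312 and 813 at an unadjusted p under 0.05), and only DESeq2 called genes, 46 of them, 13 of which were among the 32 of the pooled test. DESeq2 gave 643 genes no adjusted p. The pooled count of 32 was 36 with RLE size factors, 29 without the filter, 77 with DESeq2 and 219 when only libraries at 0 to 30 min set the spread, 0 without the replicate block and 0 to 80 when a flask was left out. All 32 genes kept their call with RLE size factors and with DESeq2, 28 without the filter and 31 with libraries at 0 to 30 min. With DESeq2, 39 genes were higher and 38 lower, with libraries at 0 to 30 min 116 and 103, and without flask 2 66 and 14. For 25 against 20 min a flask left out gave 0 to 81 genes, and for 30 against 25 min 4 to 52, while DESeq2 called 3 for the latter. The count of genes moved in every flask, 240, was 163 with a pseudocount of 5, 51 when a log2 change of 1 was asked for, and 509 to 591 when a flask was left out (a choice made after seeing the data). With a flask left out, list medians ran from -0.0136 to 0.0426 for the HOG pathway (-0.06 with all flasks), from -0.13 to -0.0403 for actin and microtubules, from 0.11 to 0.21 for autolysis, from -0.091 to 0.10 for the glyoxylate cycle, from -0.075 to 0.12 for sterols, from -0.10 to 0.0031 for wall genes and from -0.16 to 0.025 for wall synthases. The widest ranges were 0.68 to 2.88 for organosulfur use, -1.09 to 0.41 for nitrogen use and 0.86 to 1.82 for the most raised genes, followed by -0.43 to -0.0104 for heat shock, -0.97 to -0.58 for iron uptake, -0.49 to -0.16 for glycolysis and -0.33 to -0.053 for septation. Of 1935 values of named genes under all settings, 43 had another sign and none of these was called. The cause of these differences was not tested. With 3 flasks and no untreated culture of the same age, effects below the spread between flasks could not be detected. For genes with few reads the SD over flasks also holds counting error.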

Other observations

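Outside the filter lay 1251 genes, of which 409 had no read in the 6 libraries. Of the 1251, 8 had no read at 0 min and reads in all 3 libraries at 25 min, and 5 had the reverse. Any gene outside the filter with no read at 0 min had at most 9 counts summed over the 3 libraries at 25 min. Those with no read at 25 min had a sum of at most 7 counts at 0 min. AN4109, left out by the filter and named after its values were seen, had raw counts of 1, 416 and 0 at 0 min and 11, 649 and 39 at 25 min in flasks 1, 2 and 3, with flask 2 the highest at both times.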
